A study of Mus musculus with 5 samples.

Results

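A set of 10 glycolytic enzyme genes was followed in the neural tubes of EpoR-null mouse embryos and littermate controls. The genes were Hk1, Hk2, Gpi1, Pfkl, Pfkp, Aldoa, Tpi1, Pgk1, Pgam1 and Ldha, taken by symbol from the deposited count tables. These 10 genes were among 23284 gene symbols, and all 10 were among the 12703 genes with enough reads to be tested (a CPM, the read count scaled to a common library size, above 1 in at least 2 samples). The neural tube gives rise to the brain and spinal cord. Embryos came from timed crosses of EpoR +/- mice, in which 1 allele of EpoR, the erythropoietin receptor gene, is deleted. RNA-seq was done on 2 samples of EpoR -/- embryos (EpoR-null), 2 of EpoR +/+ embryos (wild type) and 1 of EpoR +/- embryos (heterozygote), and the last 3 samples were the controls. No group received a treatment, the deletion is present in every cell of the embryo, and the strain is not given in the sources used here. The labels give the stage as E8.5, and the study's own text gives a slightly later one. Whether a sample held 1 embryo or several is not given in the sources used here, so p-values measure the spread between these 5 samples.

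Glycolysis splits glucose into pyruvate in the cytosol and yields ATP without using oxygen. Hexokinases (Hk1, Hk2) trap glucose as glucose 6-phosphate, glucose-6-phosphate isomerase (Gpi1) converts it to the fructose form, and phosphofructokinases (Pfkl, Pfkp) commit it to breakdown. Aldolase (Aldoa) cuts the sugar, triose-phosphate isomerase (Tpi1) interconverts the products, phosphoglycerate kinase (Pgk1) makes ATP, and phosphoglycerate mutase (Pgam1) prepares its product for the steps that lead to pyruvate. Lactate dehydrogenase A (Ldha) reduces pyruvate to lactate and regenerates the NAD+ that glycolysis needs. Embryonic neural progenitors are known for high glycolytic activity, and many of these genes are known targets of hypoxia-inducible factor (HIF) and Myc.

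Reads counted on genes ranged from 19316126 to 41169218 per sample, so that 3 reads correspond to between 0.0715 and 0.152 CPM. Epor itself had 57 and 68 reads in the wild type samples, 11 in the heterozygote, and 7 and 19 in EpoR-null replicates 1 and 2. In CPM these were 2.36 and 1.62, 0.476, and 0.354 and 0.669, so that the heterozygote lay between the EpoR-null samples (log2 fold change -1.51, standard error 0.76, FDR 0.280 in the exact test of edgeR). Neural tube markers were present in every sample (summed CPM 1967 to 2603 over 12 genes, among them Sox2 at 220.0 to 309 CPM). Blood and vessel RNA differed between samples. Summed erythroid markers came to 1135 and 631 CPM in wild type, 47.5 in the heterozygote, and 1736 and 985 in EpoR-null, while adult alpha-globins Hba-a1 and Hba-a2 had 0 reads throughout. Endothelial markers summed to 230 and 361, 27.4, and 316 and 201.0 CPM, and somite and mesoderm markers to 79.2 and 67.6, 11.5, and 158 and 49.0 CPM. Surface ectoderm and epithelial markers summed to 22.9 and 34.6, 8.17, and 27.2 and 43.7 CPM. The heterozygote was thus lowest for each of these 4 lists, and EpoR-null replicate 1 was highest for mesoderm. In bulk RNA, fewer cells of a type and less RNA per cell cannot be told apart.

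Processed pseudogenes limit how well several of these enzymes can be counted. A processed pseudogene is a copy of a spliced messenger RNA inserted elsewhere in the genome, and the counting program used discards any read with several alignments. The tables record 13.5 to 16 such non-unique alignments per 100 reads counted on genes. Of all 100-base windows of the Pgk1 transcript, 67.0% occurred without a mismatch in another annotated transcript, chiefly the pseudogenes Pgk1-rs7 and Gm5537. For Pgam1 the share was 39.7%, chiefly from Pgam1-ps2. It was 4.92% for Gpi1 (Gm1840), 1.28% for Ldha, 0.796% for Tpi1, and 0% for Hk1, Hk2, Pfkl, Pfkp and Aldoa. The study's methods also give a read length of 65 bases. With windows of that length the share was 12.7% for Gpi1, 8.05% for Ldha, 4.85% for Aldoa and 3.82% for Tpi1. To show how complete such a copy is, the first 100 bases of the coding sequences are given, with the start codon in capitals. The Pgk1 stretch (transcript positions 152 to 251) is identical in Gm5537, and the Pgam1 stretch (positions 126 to 225) is identical in Pgam1-ps2, so that a read within it cannot be assigned to the gene:
Pgk1: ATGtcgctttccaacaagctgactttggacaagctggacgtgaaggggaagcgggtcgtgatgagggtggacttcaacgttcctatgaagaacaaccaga
Pgam1: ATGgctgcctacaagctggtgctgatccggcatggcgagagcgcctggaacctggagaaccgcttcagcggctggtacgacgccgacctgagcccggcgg
Genes overlapping at the same place can also remove reads. Windows shared with an overlapping gene made up 16.04% of Pfkp (Pitrm1), 2.48% of Gpi1 (Gm26762, a long noncoding RNA) and 1.39% of Hk1 (its antisense gene). Whether counting used strand is not given in the sources used here, so reads of Hk1 and of its antisense gene cannot be told apart. These shares come from the sequences and are the same for every sample. How many reads were lost in each sample was not tested.

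Levels of the enzymes ran from 1.47 to 1458 CPM per kb along the pathway. Per kilobase of the longest annotated transcript, Ldha had the highest level of the 10 (1458 ± 51.6 CPM per kb, mean ± SD, n = 3 controls). Pgk1 followed at 735 ± 18.5, then Pgam1 at 636 ± 23.3, Aldoa at 635 ± 76.6 and Tpi1 at 452 ± 19.98 CPM per kb. Pgam1 and Aldoa did not differ beyond their spread, and the highest Aldoa control (722) exceeded the lowest Pgk1 control (714). The upper part of the pathway was lower, with Gpi1 at 210 ± 16.6 and Pfkl at 117 ± 10.8 CPM per kb. Hk2 reached 31.5 ± 1.54, Hk1 7.31 ± 0.614 and Pfkp 1.47 ± 0.268 CPM per kb. Dividing by unshared windows only, as if no read from a shared window had been counted, would place Pgk1 at 2357 and Pgam1 at 1118 CPM per kb, against 1562 for Ldha. The rank of Pgk1 relative to Ldha therefore depends on how its shared reads were handled.

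**Figure D1:**
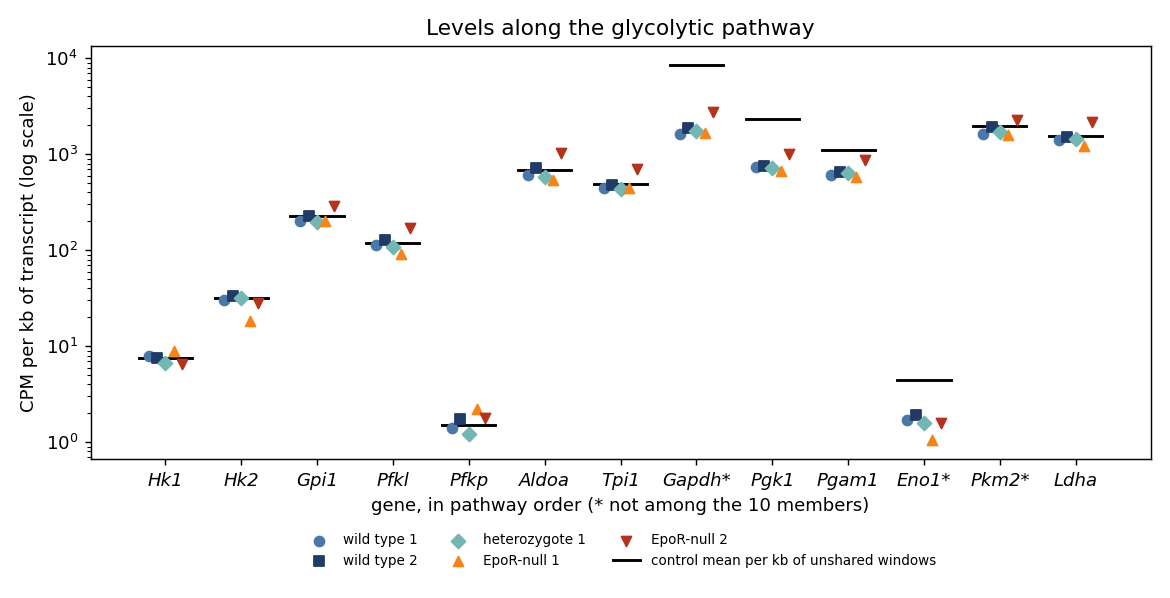
CPM per kb of transcript (log axis) for 13 glycolytic genes in pathway order, with 1 point per sample and a black line for the control mean per kb of unshared 100-base windows. The lower pathway genes from Aldoa to Ldha lie at 439 CPM per kb or more in all samples except Eno1, which lies at 1.74 on average in controls, and the black line departs most from the points in Gapdh, Pgk1, Pgam1 and Eno1.

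At the hexokinase, phosphofructokinase, aldolase and lactate dehydrogenase steps, 1 isozyme gene supplied most of the messenger RNA counted. Pfkl made up 84.2% to 86.4% of phosphofructokinase CPM per kb in the controls, and 82.0% and 86.9% in EpoR-null replicates 1 and 2. Pfkm, the muscle form, supplied 12.2% to 16% over the 5 samples and Pfkp, the platelet form, 0.912% to 1.99%. Aldoa accounted for 99.7% to 99.8% of the summed CPM per kb of Aldoa and Aldoc, the brain form of aldolase, in every sample. Ldha accounted for 98.4% to 98.7% of lactate dehydrogenase in controls and 98.9% in EpoR-null replicate 2, but 95.3% in EpoR-null replicate 1, where Ldhb, the heart form, supplied 4.75%. Hexokinase was the most mixed step. Hk2 contributed 70.3% and 73.2% in wild type, 72.5% in the heterozygote, and 53.2% and 72.7% in EpoR-null. The remainder in EpoR-null replicate 1 came from Hk1 (26.1%) and Hk3 (18.3%), a hexokinase of blood cells. With the union of exons as length, the mean control share of Hk2 moved from 72% to 78.6%, and EpoR-null replicate 1 stayed the lowest sample at 61.2%. With that length Pfkl supplied 76% to 81.9% and Pfkm 17.7% to 22.9% over the 5 samples, and Ldhb 7.02% in EpoR-null replicate 1.

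None of the 10 glycolytic enzyme genes was differentially expressed between EpoR-null and control neural tubes, where a gene was called by the exact test of edgeR if it had p < 0.001 together with FDR < 0.05. The same rule called 606 of the 12703 tested genes, 118 higher and 488 lower in EpoR-null, a background of 4.77%, and FDR < 0.05 alone called 7.31% of all genes and 0 members. The count of members at an unadjusted p below 0.05 was 0 in the exact test and in the quasi-likelihood F-test of edgeR, and 1 (Hk2) in DESeq2, which also called 0. Over all tested genes, 2515 of 12703 were below it in the exact test, 3052 of 12703 in the F-test and 3181 of 19293 in DESeq2. Log2 fold changes were positive for 9 of the 10 genes, against 56.2% of all tested genes, with a median of 0.21 against 0.06 for all genes. The lowest FDR was 0.273, for Hk2. Summed over the 10 genes, CPM came to 7878 and 8534 in wild type, 7815 in the heterozygote, and 7102 and 11730 in EpoR-null. The EpoR-null samples thus bracketed the controls, with replicate 1 below and replicate 2 above all 3 of them.

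The hexokinases did not move together. Hk2, the inducible hexokinase (chromosome 6), had 166 and 182 CPM in wild type, 173 in the heterozygote, and 101 and 157 CPM in EpoR-null replicates 1 and 2. It was the only member with both EpoR-null samples below all controls, a pattern found in 22.1% of all tested genes, and its log2 fold change was -0.43 (standard error 0.22, FDR 0.273, exact test). That value rested mostly on EpoR-null replicate 1. Without replicate 2 the log2 fold change was -0.78 (FDR 9.1e-07, past both thresholds), and without replicate 1 it was -0.15 (FDR 0.496). Hk1, the broadly expressed hexokinase (chromosome 10), had 33.5 and 32.0 CPM in wild type, 28.4 in the heterozygote, and 38.5 and 28.2 in EpoR-null. Its EpoR-null samples were the highest and the lowest of the 5 (log2 fold change 0.09, standard error 0.22, FDR 0.863).

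Gpi1 and Pfkl, which carry the sugar from glucose 6-phosphate to the committed step, showed a wide gap between the EpoR-null samples. Gpi1 (chromosome 7) had 580.3 and 659 CPM in wild type, 573 in the heterozygote, and 581 and 841 in EpoR-null. Replicate 1 lay within the controls and replicate 2 above them (log2 fold change 0.23, standard error 0.21, FDR 0.572, exact test). Pfkl, the liver-type phosphofructokinase (chromosome 10), had 420.3 and 482 CPM in wild type, 406 in the heterozygote, and 343 and 628 in EpoR-null. Here the EpoR-null samples were the lowest and the highest of all (log2 fold change 0.15, standard error 0.29, FDR 0.814). Pfkp (chromosome 13) was a minor isozyme with 118 to 306 reads per sample. Its CPM was 5.87 and 7.29 in wild type, 5.10 in the heterozygote, and 9.24 and 7.32 in EpoR-null. Both EpoR-null samples exceeded all controls, as in 21.2% of all tested genes, but the second did so by a margin of 7.32 against 7.29 CPM (log2 fold change 0.44, standard error 0.34, FDR 0.492, exact test).

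The 5 enzymes from aldolase to lactate dehydrogenase shared a single pattern, in which EpoR-null replicate 2 stood above the other 4 samples. Aldoa (chromosome 7) had 936 and 1118 CPM in wild type, 895 in the heterozygote, and 830.3 and 1590 in EpoR-null (log2 fold change 0.30, standard error 0.31, FDR 0.627, exact test). Tpi1 (chromosome 6) had 709.7 and 763 CPM in wild type, 705 in the heterozygote, and 712 and 1123 in EpoR-null. Its controls spread by an SD of 32.1 CPM around 726, and EpoR-null replicate 1 lay inside their range (log2 fold change 0.34, standard error 0.23, FDR 0.424).

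Pgk1 (chromosome X) had 1355 and 1366 CPM in wild type, 1303 in the heterozygote, and 1218 and 1841 in EpoR-null (log2 fold change 0.19, standard error 0.21, FDR 0.668, exact test). Pgam1 (chromosome 19) had 1088 and 1171 CPM in wild type, 1128 in the heterozygote, and 1028 and 1559 in EpoR-null, with nearly the same fold change (0.20, standard error 0.22, FDR 0.656). In both genes, EpoR-null replicate 1 was the lowest sample and replicate 2 the highest. Ldha (chromosome 7), the member with the most reads counted, had 2584 and 2753 CPM in wild type, 2599 in the heterozygote, and 2241 and 3952 in EpoR-null. Its EpoR-null samples spread by an SD of 1210 CPM around 3096, against a control SD of 93.7 CPM around 2645 (log2 fold change 0.23, standard error 0.26, FDR 0.678, exact test).

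**Figure D2:**
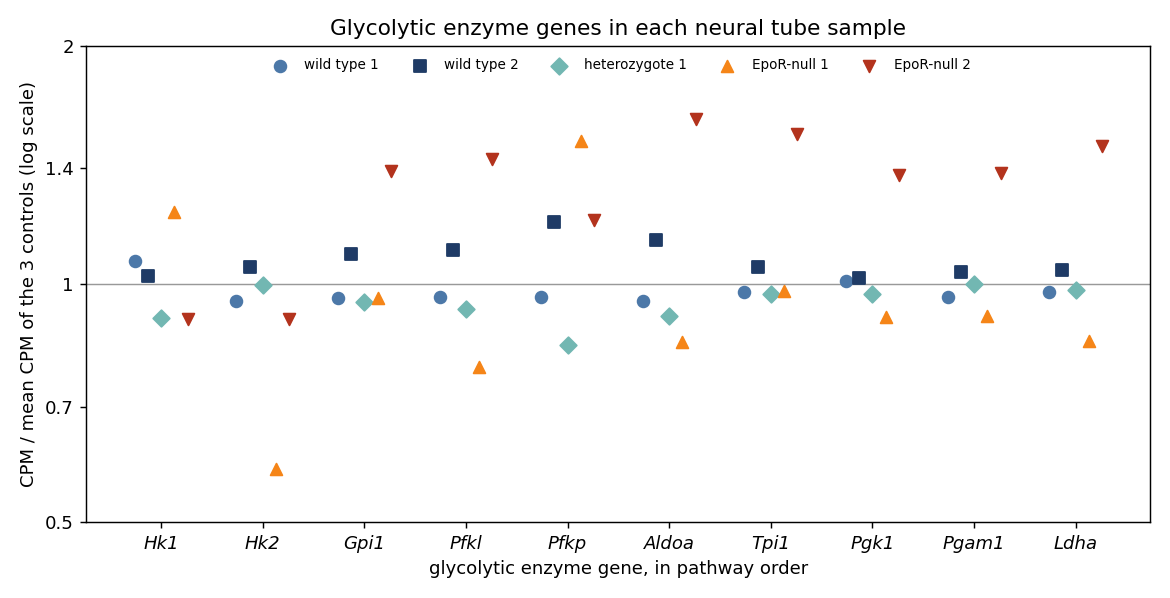
CPM of each glycolytic enzyme gene in each sample, divided by the mean CPM of the 3 controls (log axis, 1 point per sample). EpoR-null replicate 2 lies at 1.37 to 1.62 times the control mean from Gpi1 and Pfkl through Aldoa to Ldha, while EpoR-null replicate 1 lies at 0.785 to 0.981 in those 7 genes and at 0.584 in Hk2.

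Across the 10 genes, EpoR-null replicate 2 was the highest sample in 7 (Gpi1, Pfkl, Aldoa, Tpi1, Pgk1, Pgam1 and Ldha), against 34.8% of all tested genes. EpoR-null replicate 1 was the lowest sample in 6 (Hk2, Pfkl, Aldoa, Pgk1, Pgam1 and Ldha), against 22.8% of all tested genes. EpoR-null replicate 2 exceeded EpoR-null replicate 1 in 8 of the 10 genes, where 49.2% of all genes did. The median difference was 0.61 on the log2 scale, against -0.01 for all genes. Wild type replicate 2 exceeded wild type replicate 1 in 9 of 10 genes, where 47.3% of all genes did, but by a median of only 0.12. Within a replicate number, EpoR-null replicate 1 differed from wild type and heterozygote replicate 1 by a median log2 of -0.12 over the 10 genes, and EpoR-null replicate 2 from wild type replicate 2 by 0.40.

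Which EpoR-null sample entered the comparison changed both the direction and the calls. Without EpoR-null replicate 1, the median log2 fold change of the 10 genes was 0.47, 7 of them had FDR < 0.05 in the exact test, and 4 passed both thresholds, all higher in EpoR-null, where 8.06% of all genes were called higher and 10.2% lower. The 4 genes were Aldoa (0.69, FDR 0.00160), Tpi1 (0.63, FDR 0.000179), Pgk1 (0.46, FDR 0.00529) and Ldha (0.58, FDR 0.000375), and the other 3 were Gpi1, Pfkl and Pgam1. Without EpoR-null replicate 2, the median was -0.14, only Pfkp and Hk1 had positive values, and Hk2 was the 1 member called, in the lower direction, where 5.1% of all genes were called lower and 2.66% higher. Each of these fits has a single EpoR-null sample, which is assumed to vary as the controls do. Leaving out a wild type sample or the heterozygote left 0 members called.

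**Figure D3:**
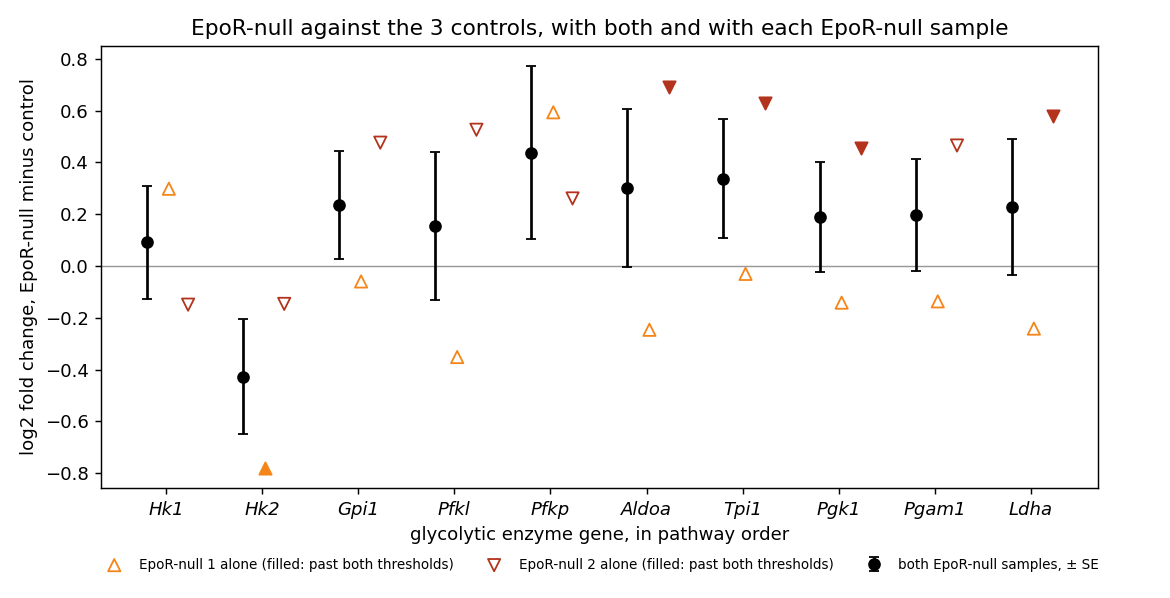
Log2 fold change, EpoR-null minus control, of each glycolytic enzyme gene with both EpoR-null samples (black, ± SE) and with EpoR-null 1 or EpoR-null 2 alone (triangles, filled where past both thresholds). With EpoR-null 2 alone Aldoa, Tpi1, Pgk1 and Ldha stand at 0.46 to 0.69, and with EpoR-null 1 alone Hk2 stands at -0.78.

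The samples that set the members apart also differed in other ways. EpoR-null replicate 1 had the highest summed mesoderm and erythroid markers (158 and 1736 CPM). EpoR-null replicate 2 had the lowest summed neural tube markers (1967 CPM, against 2313 to 2603 in the other samples). Its summed surface ectoderm and epithelial markers were the highest (43.7 CPM). It also had the highest share of non-unique alignments (16 per 100 gene reads) and the lowest TMM scaling factor (0.936, against 1.01 to 1.03 in the other samples). Scaling by library size alone, without this factor, kept 9 of 10 log2 fold changes positive, with a median of 0.15. Fold changes of the tested genes with a matched length (11529 of 12703) also followed transcript length. With genes cut by length into 5 groups of equal size, from the shortest to the longest, the median log2 fold change went from 0.37 through 0.17, 0.03 and -0.13 to -0.37, and the share of genes with EpoR-null replicate 2 highest went from 67.5% to 5.2%. The 5 enzymes from Aldoa to Ldha have transcripts of 1549 to 1825 bases and fall in the group of shortest genes, and their log2 fold changes of 0.19 to 0.34 were below its median. Gpi1 and Pfkl (2884 and 3730 bases) fall in the middle group, Hk1 and Pfkp (4278 and 4145 bases) in the next, and Hk2 (5513 bases), the 1 member with a negative value, in that of the longest genes. With offsets that remove each sample's trend on length and GC content, in the likelihood-ratio test of edgeR, the members' median was -0.01 with 5 of 10 positive. Values then ranged from -0.18 (Hk2) to 0.52 (Pfkp), and Ldha stood at -0.04. With both EpoR-null samples, the members' median was thus positive under every scaling of whole libraries that was run, and -0.01 with these offsets. Without EpoR-null replicate 2, and without offsets, it was -0.14. The part that length, GC content, marker content or non-unique reads had in the members' values was not tested.

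**Figure D4:**
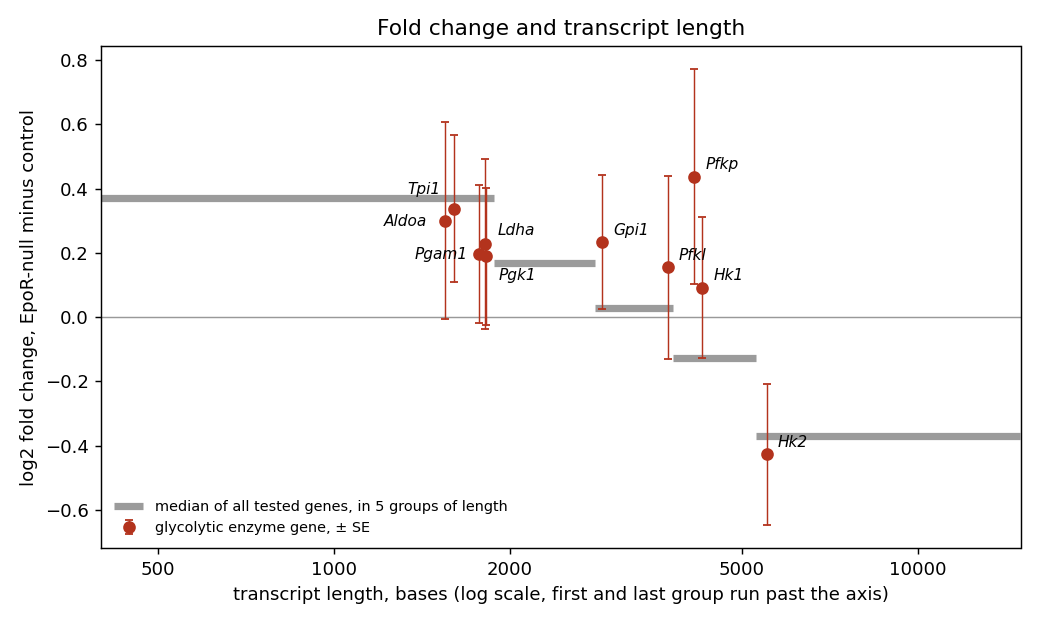
Log2 fold change, EpoR-null minus control, against transcript length (log axis), with the 10 glycolytic enzyme genes as points ± SE and the median of the tested genes with a matched length in each of 5 length groups as grey lines. The medians step down from 0.37 to -0.37, the 5 shortest members lie below the line of their group, and Hk2 lies near the line of the longest genes.

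The promoters of the members were searched for the letters ACGTG, and any link between these letters and the members' values was not tested. These 5 letters are the core of many hypoxia response elements and lie in the CACGTG box that Myc and related factors bind. RefSeq promoters (GRCm38.p6, 250 bases before to 50 after a start) were found for all 10 members, with 14 promoters in all. ACGTG on either strand occurred in at least 1 promoter of 6 members, and in the first listed promoter of Hk2, Pgk1, Pgam1 and Ldha, against 21.8% and 19.7% of all 27025 RefSeq genes. The RefSeq genes were not matched to the members for GC content, so these shares cannot show an excess. The first listed promoters of these 4 genes had 65% to 67.3% GC, and those of the other members 51.3% to 64.7%. The bases upstream of the first listed start are printed for these 4 genes, on the strand of the gene, with every ACGTG or its reverse complement CACGT in capitals. The regions are chr7:46845644-46845803 (+) for Ldha, chrX:106186940-106187099 (+) for Pgk1, chr19:41911711-41911870 (+) for Pgam1 and chr6:82774455-82774684 (-) for Hk2:
Ldha: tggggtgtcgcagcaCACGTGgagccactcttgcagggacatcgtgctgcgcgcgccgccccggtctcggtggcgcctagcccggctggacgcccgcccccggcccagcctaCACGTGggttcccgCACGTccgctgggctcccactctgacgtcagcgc
Pgk1: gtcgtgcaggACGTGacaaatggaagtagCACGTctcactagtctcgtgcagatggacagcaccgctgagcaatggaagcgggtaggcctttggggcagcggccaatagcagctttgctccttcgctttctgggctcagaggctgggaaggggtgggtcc
Pgam1: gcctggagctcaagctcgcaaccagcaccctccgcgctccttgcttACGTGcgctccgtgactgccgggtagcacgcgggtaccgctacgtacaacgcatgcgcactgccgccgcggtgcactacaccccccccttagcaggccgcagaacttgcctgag
Hk2: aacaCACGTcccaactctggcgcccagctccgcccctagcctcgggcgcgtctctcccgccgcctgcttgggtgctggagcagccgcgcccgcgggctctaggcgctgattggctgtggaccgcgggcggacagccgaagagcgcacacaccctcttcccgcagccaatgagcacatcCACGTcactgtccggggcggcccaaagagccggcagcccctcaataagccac
Ldha has 5 matches, at -145, -144, -48, -47 and -34 from the start, of which both adjacent pairs form a CACGTG box read on each strand. Pgk1 has 2 matches at -150 and -131, Pgam1 has 1 at -114, and Hk2 has 2 at -226 and -52. For Ldha and Pgam1, the bases after this first listed start were not found in an annotated transcript of the gene. Their positions are thus counted from a start that the annotation used here did not match. The second Ldha promoter, whose start was matched, held 0 matches. Aldoa and Hk1 held the letters only in other promoters, and Gpi1, Pfkl, Pfkp and Tpi1 in none. A match describes letters in this window and is not evidence of binding.

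Among the other glycolytic enzymes, 14 of 19 listed genes were tested and 0 were called. In the exact test 1 of them (Ldhb) had an unadjusted p below 0.05, against 2515 of all 12703 tested genes. EpoR-null replicate 2 was highest in 9 (64.3%, against 34.8% of all tested genes). The 14 tested enzymes had a median log2 fold change of 0.18, with 11 positive (78.6%, against 56.2% of all tested genes). Gapdh, the dehydrogenase between aldolase and Pgk1, had 2320.0 and 2662 CPM in wild type, 2476 in the heterozygote, and 2354 and 3874 in EpoR-null (log2 fold change 0.33, standard error 0.25, FDR 0.487, exact test), and without EpoR-null replicate 1 it passed both thresholds at 0.64 (FDR 0.000335). Pyruvate kinase (listed as Pkm2) had 3935 and 4626, 4193, and 3838 and 5537 CPM in the same order (log2 fold change 0.14, standard error 0.21, FDR 0.755). In both, EpoR-null replicate 2 was the highest sample, and Pkm2 had the same order of the 5 samples as Ldha. Of the 100-base windows of Gapdh, 78.1% recur in 86 other annotated genes, and the reads this removed were not measured.

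Eno1, the main enolase of most tissues, was counted at only 42 to 163 reads per sample. Its CPM was 3.47 and 3.88 in wild type, 3.24 in the heterozygote, and 2.12 and 3.20 in EpoR-null (log2 fold change -0.40, standard error 0.38, FDR 0.618, exact test). Windows shared with other genes made up 59.0% of its transcript, chiefly Eno1b. Per kb of unshared windows only, its control mean was still 4.47 CPM, against 1562 for Ldha. Why it was counted so low was not tested, and its level cannot be read from these counts. Ldhb was the isozyme with the largest difference. It had 28.7 and 26.4 CPM in wild type, 30.8 in the heterozygote, and 80.2 and 32.4 in EpoR-null (log2 fold change 0.97, standard error 0.39, FDR 0.107). Replicate 1 was far above the other 4 samples, opposite to its place in Ldha, and without EpoR-null replicate 2 Ldhb passed both thresholds at 1.49 (FDR 1.96e-17), while without replicate 1 it stood at 0.18. The same sample had the highest mesoderm markers, whose part in the result was not tested. Pfkm (log2 fold change 0.14), Aldoc (0.53) and the red cell enzyme Bpgm (0.22) had FDR of 0.440 to 0.713.

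Glucose enters and lactate leaves the cell through transporters, and the main ones showed a wide gap between the EpoR-null samples. None of the 8 tested in the exact test, or of the 10 tested in DESeq2, was called or had an unadjusted p below 0.05. Over all tested genes, 2515 of 12703 were below it in the exact test and 3181 of 19293 in DESeq2. Slc2a1 (GLUT1), the main glucose importer of the early embryo, had 878 and 1075 CPM in wild type, 928 in the heterozygote, and 609 and 1339 in EpoR-null. Slc2a3 (GLUT3), the high-affinity neuronal importer, had 111 and 118 CPM, 103, and 43.7 and 192 in the same order. For both, EpoR-null replicate 1 was the lowest and replicate 2 the highest sample, so that fold changes of 0.02 and 0.09 (log2) had standard errors of 0.35 and 0.57. Without EpoR-null replicate 2 they were -0.66 and -1.34, and without replicate 1 they were 0.48 and 0.80, with Slc2a3 past both thresholds in each direction and Slc2a1 in the lower one. The lactate carriers Slc16a1 (MCT1) and Slc16a3 (MCT4) ran from 120.1 and 127 CPM in EpoR-null replicate 1 to 256 and 263 in replicate 2, with controls at 185 to 198 and 178 to 222. Slc16a1 passed both thresholds without EpoR-null replicate 2 (-0.67, FDR 2.15e-05).

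Genes that steer the pathway or use its products were counted in the same way. Of 10 tested regulators of glycolytic flux, 0 were called. In the exact test 1 of them had an unadjusted p below 0.05, against 2515 of all 12703 tested genes. Their median log2 fold change was -0.06, and EpoR-null replicate 2 was highest in 2 (20%, against 34.8% of all tested genes). Pdk1, the kinase that shuts off pyruvate dehydrogenase, had 111 and 105 CPM in wild type, 98.0 in the heterozygote, and 89.1 and 93.1 in EpoR-null (log2 fold change -0.20, standard error 0.13, FDR 0.433, exact test). Its EpoR-null samples lay together below the controls. Of 26 tested genes of the branches and of pyruvate use, 0 were called by edgeR. In the exact test 5 of them had an unadjusted p below 0.05, against the same 2515 of 12703. DESeq2 called 1 of 28 lower, where it called 787 of 19293 genes lower. EpoR-null replicate 2 was highest in 11 of the 26 (42.3%, against 34.8% of all tested genes). Pdha1, a subunit of pyruvate dehydrogenase, had 137 and 148, 138, and 110.3 and 124 CPM in the same order (log2 fold change -0.27, standard error 0.14, FDR 0.269).

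HIF subunits, HIF targets outside glycolysis and Myc were listed together because they share regulators with the enzymes. Of 18 tested, 0 were called, and 2 had an unadjusted p below 0.05 in the exact test. DESeq2 tested 20 of the listed genes, called 0 and had 4 with an unadjusted p below 0.05. Over all tested genes, 2515 of 12703 were below it in the exact test and 3181 of 19293 in DESeq2. The median log2 fold change of the 18 was 0.17. EpoR-null replicate 1 was the highest sample in 8 of them (44.4%, against 25% of all tested genes) and replicate 2 in 4 (22.2%, against 34.8%). For the 10 enzymes these counts were 2 (20%) and 7 (70%), and the difference between the lists was not tested. Hif1a, the oxygen-regulated HIF subunit, had 192 and 185 CPM in wild type, 188 in the heterozygote, and 164 and 154 in EpoR-null (log2 fold change -0.25, standard error 0.13, FDR 0.285). Vegfa, a vessel growth factor and HIF target, had 59.1 and 64.96, 62.0, and 55.6 and 49.3 CPM (log2 fold change -0.24, standard error 0.15, FDR 0.390). Both had their EpoR-null samples below all controls, as did 5 of the 18 listed genes (27.8%, against 22.1% of all tested genes), while 4 (22.2%, against 21.2%) had both above. Of these 4, Higd1a, a mitochondrial protein named here after its values were seen, had the lowest FDR of the list (0.0684, log2 fold change 0.39). Myc had 40.5 and 57.7 CPM in wild type, 34.6 in the heterozygote, and 22.3 and 72.3 in EpoR-null, the same order of samples as Aldoa (log2 fold change 0.10, standard error 0.52, FDR 0.945). Of the neural tube markers, Msi1, an RNA-binding protein of neural progenitors, was the 1 gene called in any of the lists (240 and 264 CPM in wild type, 256 in the heterozygote, 174 and 181 in EpoR-null, log2 fold change -0.51, standard error 0.14, FDR 0.00712). It lost the call when any of 4 samples was left out (FDR 0.0111 to 0.142), the exception being EpoR-null replicate 2, and in the quasi-likelihood F-test (FDR 0.0662). Its log2 fold change stayed between -0.48 and -0.55 over the 5 samples left out.

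The genes nearest to the mean profile of the 10 enzymes, by Euclidean distance of centred log2 CPM over the 5 samples, were Gpn3 (0.0319), Fam189b (0.0396), C85492 (0.0432), Eefsec (0.0466) and Ccdc61 (0.0512). Of the members, Gpi1 lay closest to that mean (0.0937), followed by Pgk1 (0.126) and Pgam1 (0.129), while Hk2, Hk1 and Pfkp were farthest (0.672 to 0.708). The 5 nearest genes were expressed at 10.5 to 41.97 CPM, and had log2 fold changes of 0.14 to 0.17 and FDR of 0.710 to 0.794 in the exact test. EpoR-null replicate 2 was their highest sample, which, like the small fold changes, follows from picking genes near that mean profile.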

How the data were processed

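RNA from mouse neural tubes was polyA-selected and sequenced by the authors as single-end reads. Per the submitters' processing notes, reads were trimmed with Trimmomatic 0.32, aligned with TopHat2 2.1.0 and counted per gene with HTSeq 0.6.1, and the deposited values are raw read counts, 1 table per sample, without normalization. The notes name mm9, while the study's methods name a human build and another Tophat version, and give read lengths of both 65 and 100 bases. HTSeq leaves out reads with several alignments. Its 5 summary lines were kept out of library sizes and tests. Reads outside annotated genes came to 8.11% to 11.0%.

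The test was that of edgeR 4.0.16 in R 4.3.3 (TMM, tagwise dispersions, exactTest, Benjamini-Hochberg adjustment over 12703 genes), EpoR-null (n = 2) against control (n = 3). DESeq2 1.42.0, the quasi-likelihood and likelihood-ratio tests, other scalings, filters and dispersions, and each sample left out were alternatives. CPM use TMM library sizes, and differences within a replicate number use 0.5 added to the CPM. No pair of samples agreed within sampling noise (lowest chi-square per degree of freedom 12.6). The members and gene lists were chosen with earlier results of these data known. The genes named by rule are all members, list genes past both thresholds, a fixed set of 17 and the 5 nearest profiles. Outside the rule, Sox2, Hk3, Hba-a1 and Hba-a2 are also named, and Higd1a was named after its values were seen.

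Lengths, positions and shared windows came from GENCODE M21 (GRCm38) by symbol. The shared windows were planned on the genome and run on annotated transcripts, so unannotated copies are not counted. Tested on simulated counts for this comparison, over 12703 genes, the exact test recovered 51% of genes changed by 1 and 90.6% of those changed by 2 on the log2 scale, and 20% of its calls were genes not changed. The quasi-likelihood F-test recovered 35.6% and 81.2%, with 7.26% not changed. A limit on false calls in that test was dropped after its outcome was seen.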

Additional observations from a re-analysis of the deposited data

How the results depend on the processing

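The count of glycolytic enzyme genes past both thresholds stayed at 0 under every change of test, scaling, filter or dispersion, and ranged from 0 to 4 when each sample was left out (4 higher without EpoR-null replicate 1, 1 lower without EpoR-null replicate 2). The count over all genes, 606, depended more on the processing. It was 1009 with DESeq2, 257 with a common dispersion, 928 at FDR < 0.05 alone, and 115 to 2296 when each sample was left out. The quasi-likelihood F-test gave 0 (3052 at an unadjusted p below 0.05, lowest FDR 0.0590), and 0 also when the heterozygote formed a separate group (1716). The likelihood-ratio test gave 627, and 140 with length and GC offsets. Fits with offsets cover only the 11529 tested genes with a matched length. With the replicate number as a block, the quasi-likelihood F-test gave 291 genes and 0 members (lowest member FDR 0.111, Hk2), and with offsets and the block it gave 0 genes (974 at an unadjusted p below 0.05), with a median of -0.07 over the members. The numbers are not shown to pair the samples: the labels do not say that a number marks a litter or day, and there are only 2 pairs, whose differences correlated across genes (Pearson 0.427, Spearman 0.529, genes not being independent). Over the samples left out, log2 fold changes ran from -0.66 to 0.48 for Slc2a1 and from -1.34 to 0.80 for Slc2a3, reversing without EpoR-null replicate 2. Windows of 65 bases gave 67.7% for Pgk1, 40.97% for Pgam1, 12.7% for Gpi1, 8.05% for Ldha, 4.85% for Aldoa and 3.82% for Tpi1. Outside the members they gave 81.2% for Gapdh and 68.2% for Eno1. The ratio of summed member CPM, EpoR-null over control, was 1.17, and 1.12 by library size alone and 1.16 without Ldha. The cause of these changes was not tested. The fewest reads of a member in a sample were 118 (Pfkp), and with 2 EpoR-null samples the standard errors of the members were 0.21 to 0.34 on the log2 scale.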
